A study of Mus musculus with 8 samples.

Results

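Markers of hippocampal subfields other than CA1 were followed in nuclear RNA of mouse place cells, neurons that fire when the animal is at a particular location. The set held 9 genes named for this purpose, and all 9 were present among the 15519 genes of the deposited table. The dentate granule cell markers were Prox1, Rfx3, Glis3 and Plk5, the CA2 marker was Pcp4, the CA3 markers were Chgb and Galnt3, and the markers of subiculum and cortex were Fezf2 and Lamp5. There were 8 libraries of wild-type hippocampal pyramidal cells, 4 labelled Day 0 place cells and 4 labelled Recurring place cells. Cells had been classed by imaging during navigation and their nuclei phototagged and collected, so every library carries that treatment. The labels do not define the classes further, name a subfield or give age, sex, strain, batch or the number of nuclei per library, and each title carries its own mouse number. By their titles the 8 libraries come from 8 different mice and were treated as separate animals. The labels say no more on replication, and tests rest on library-to-library spread alone. Values for a group are listed in the order of replicates 1 to 4.

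The hippocampus is organised as a chain of excitatory cells. Granule cells of the dentate gyrus project to CA3, CA3 pyramidal cells project to CA1, and CA1 sends its output to the subiculum and cortex, with CA2 as a small field between CA3 and CA1. Each field keeps its own transcription factors, peptides and synaptic proteins, which is why a few genes can serve as landmarks, although most of them are enriched in a field and are not exclusive to it.

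Totals ran from 8374986 to 14887866 reads per library, and from 10718 to 13807 genes had reads. The labelled cell type was checked on its markers: Slc17a7, the vesicular glutamate transporter of pyramidal cells, had 1182 to 6426 reads and was read in all 8 libraries, and 10 of 11 CA1 pyramidal markers were read in all 8. The gene Gad1, an enzyme of GABA synthesis in interneurons, was not uniformly absent: it had 5740 reads in Recurring replicate 2, 1304 in Day 0 replicate 1 and at most 768 in the other libraries. With 0 reads, a library still allows up to 0.202 to 0.358 RPM, the reads-per-million scale (3 reads of its total, counting error only). Levels below are reads recovered from the deposited values and divided by a size factor per library (normalized counts), and log2 levels are of that value plus 1.

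The promoter sequences of 4 members that differ in detection are shown. These are Chgb and Rfx3, read in all 8 libraries, Prox1, read in 6, and Pcp4, read in 5. The least detected members, Glis3 and Plk5, read in 4, and Fezf2, read in 3, are not among them. Each is the 250 bases upstream of a RefSeq start in GRCm38.p6, written 5′ to 3′ on the strand of the gene. Capitals mark matches to TGACGTCA, the cAMP response element, or to GTTGCC, a core element bound by RFX factors such as Rfx3, searched on both strands.
Chgb (chr2:132781392-132781641, plus strand): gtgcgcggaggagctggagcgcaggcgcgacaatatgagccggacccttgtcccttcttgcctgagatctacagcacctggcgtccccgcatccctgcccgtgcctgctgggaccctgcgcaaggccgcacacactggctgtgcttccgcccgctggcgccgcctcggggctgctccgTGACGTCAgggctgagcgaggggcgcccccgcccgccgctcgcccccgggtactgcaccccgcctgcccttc
Rfx3 (chr19:28011167-28011416, minus strand): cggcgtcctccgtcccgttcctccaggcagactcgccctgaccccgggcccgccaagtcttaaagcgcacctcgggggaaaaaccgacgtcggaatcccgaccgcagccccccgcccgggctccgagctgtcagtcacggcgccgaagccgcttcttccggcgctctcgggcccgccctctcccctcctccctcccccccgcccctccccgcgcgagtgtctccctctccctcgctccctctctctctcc
Prox1 (chr1:190170828-190171077, minus strand): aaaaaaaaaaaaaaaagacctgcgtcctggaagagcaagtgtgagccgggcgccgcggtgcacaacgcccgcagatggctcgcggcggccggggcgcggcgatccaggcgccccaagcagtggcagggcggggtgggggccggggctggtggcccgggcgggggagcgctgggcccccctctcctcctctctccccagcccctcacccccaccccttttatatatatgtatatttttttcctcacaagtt
Pcp4 (chr16:96467356-96467605, plus strand): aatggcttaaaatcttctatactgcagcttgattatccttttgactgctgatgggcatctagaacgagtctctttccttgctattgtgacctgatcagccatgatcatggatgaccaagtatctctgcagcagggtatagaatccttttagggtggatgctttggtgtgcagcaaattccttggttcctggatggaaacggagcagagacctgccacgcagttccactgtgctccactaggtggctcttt
The only match in the windows of the 9 members was a cAMP response element upstream of Chgb, a motif held by 1.55% of 32851 promoter windows of the same length. GTTGCC, held by 10.4% of windows, had no match upstream of any member, which says only that these letters are not in these windows. The Chgb window held 26 CG dinucleotides, that of Rfx3 30, the window of Prox1 shown (it has 2 in RefSeq) 20 and that of Pcp4 3, where the median window held 6. CG content did not follow detection, since the windows upstream of the 2 listed starts of Lamp5, also read in all 8 libraries, held 3 and 1, and that of Galnt3, read in 5, held 34.

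Detection differed between members, from 3 to all 8 libraries. Chgb, Rfx3 and Lamp5 were read in all 8 libraries, Prox1 in 6, Pcp4 and Galnt3 in 5, Glis3 and Plk5 in 4, and Fezf2 in 3. For comparison, 39.2% of the genes in the table were read in all 8 libraries, and no gene in the table was read in fewer than 3. Day 0 replicates 1 to 4 had reads of 7, 6, 5 and 6 of the 9 members. Recurring replicates 1 to 4 had reads of 5, 8, 8 and 6. The mean was 6.00 ± 0.816 (Day 0) against 6.75 ± 1.5 (Recurring; SD, n = 4), and the ranges overlapped. No library had reads of all 9 members.

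**Figure D1:**
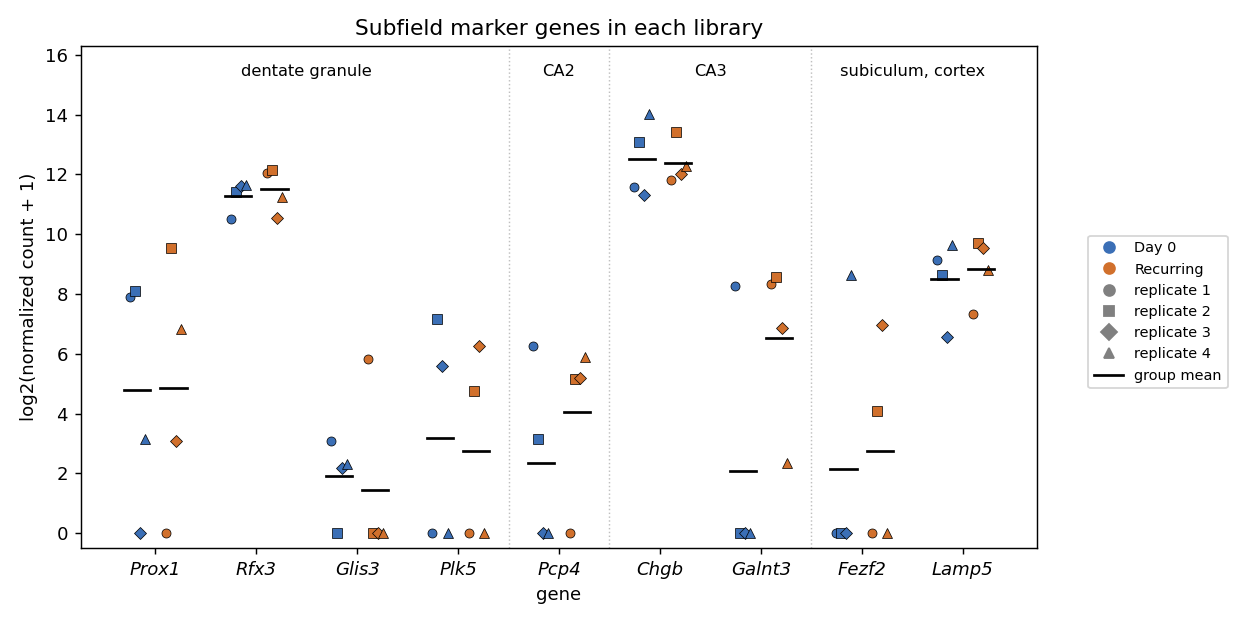
Level of each of the 9 markers, as log2 of the normalized count plus 1, in the 4 Day 0 (blue) and 4 Recurring (orange) libraries; symbols stand for replicates and black lines for group means. Rfx3, Chgb and Lamp5 lie above 6 in every library, whereas each of the other 6 genes is at 0 in at least 2 libraries.

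Per length, the members fell into levels that differed widely. The mean normalized count per kilobase of exon was 2498 for Chgb, 263 for Rfx3 and 172 for Lamp5. The Chgb values per kilobase, from 938 to 6026 over the 8 libraries, lay above all those of Rfx3, from 133 to 415. Rfx3 and Lamp5, with 32.2 to 284, overlapped and so are not ordered beyond their spread. The other members had mean normalized counts per kilobase of 32.3 for Galnt3, 25.9 for Pcp4, 22.0 for Fezf2, 20.6 for Prox1, 13.7 for Plk5 and 1.0 for Glis3. All of these reached 0 in some libraries and their ranges overlapped, so their order carries no weight. The exon lengths belong to GENCODE vM21 and so to an older assembly than the one the reads were counted on.

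The comparison asked whether place cells labelled Recurring carried more or less RNA of these markers than those labelled Day 0. None of the 7 members that could be tested differed at the threshold. By limma across 11078 genes, 0 members were called at an adjusted p of 0.05, beside 0 genes of the whole table (0%), and 0 members had an unadjusted p under 0.05, beside 401 genes (3.62%). Voom weights also called 0 genes, with 518 at an unadjusted p under 0.05, and limma without a variance trend called 2, none of them a member. Means were higher in Recurring libraries for 5 of the 7 tested members and lower for 2, with a median difference of 0.21 log2 units, beside 5553 higher and 5525 lower genes and a median of 0.00 over all genes tested. The values of the groups overlapped for all 9 members, whereas they did not overlap in 267 of the tested genes (2.41%). Fewer cells of a type and less RNA per cell cannot be told apart in such bulk libraries.

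**Figure D2:**
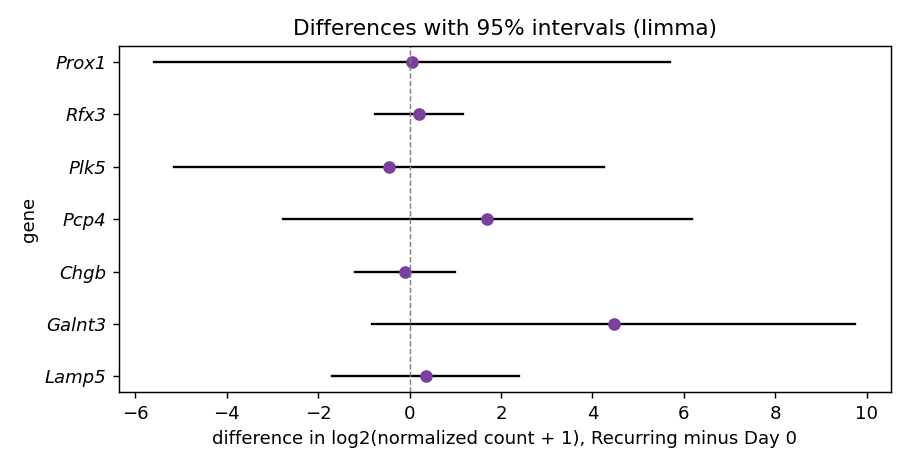
Difference between Recurring and Day 0 for the 7 tested markers, in log2 units, as points with 95% intervals from limma over 4 libraries per group. All 7 intervals include 0, and they are narrowest for Rfx3 (-0.75 to 1.17) and Chgb (-1.20 to 0.99).

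Among the granule cell markers, Rfx3 was abundant in every library and Prox1 was present or absent by library. Prox1, a homeobox transcription factor that sets and keeps granule cell identity and is also made by some interneurons, counted 322, 346, 0 and 8 reads in the Day 0 libraries. The Recurring libraries counted 0, 917, 7 and 111. High and near-empty libraries thus occurred in both groups, and the groups overlapped. The log2 level of Prox1 was 4.8 ± 3.93 (Day 0) against 4.86 ± 4.18 (Recurring; SD, n = 4). The difference was 0.06 (SE 2.67, 95% interval -5.58 to 5.70, limma adjusted p of 0.998), and its sign turned when any of 4 single libraries was left out, with values from -1.54 to 1.68. The antisense gene Prox1os, which is not in the deposited table, shares 133 of the 8390 exon bases of Prox1, and without strand reads there cannot be told apart.

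Reads of Prox1 were highest in the library with the highest sum of interneuron markers. Recurring replicate 2, with 917 reads of Prox1, had 5740 reads of Gad1 and 1781 of Gad2, the other enzyme of GABA synthesis. Summed over the 6 interneuron markers in the table it had 1114 RPM, against 38.2 to 235 in the Day 0 libraries and 64.8 to 146 in the other Recurring libraries. Day 0 replicate 1, with 322 reads of Prox1, had 1304 of Gad1 and 456 of Gad2. Day 0 replicate 2, with 346 reads of Prox1, had 239 of Gad1, 45 of Gad2 and an interneuron sum of 49.1 RPM. Recurring replicate 4, with 111 reads of Prox1, had 0 of Gad1 and 22 of Gad2, but 579 of Erbb4, 235 of Vip and 264 of Nr2f2, genes of the interneuron lists. Day 0 replicate 3 had 501 reads of Gad1 and 0 of Prox1. Of the 9 listed interneuron markers, 6 were in the table and 3 were tested, 2 higher and 1 lower in Recurring libraries (median difference 1.66). The part of interneuron RNA in the Prox1 values was not tested.

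Rfx3, a transcription factor of the regulatory factor X family that drives genes of cilia, was read in every library. It counted 1979, 3401, 2609 and 3189 reads in the Day 0 libraries and 6870, 5672, 1413 and 2395 in the Recurring ones. Normalized counts were highest in Recurring replicates 2 and 1, at 4579 and 4255, and lowest in Day 0 replicate 1 and Recurring replicate 3, at 1471 and 1497. The Recurring group therefore held both the highest values and a value near the lowest, and the highest library stood 3.11-fold above the lowest. The log2 level was 11.29 ± 0.52 (Day 0) against 11.50 ± 0.76 (Recurring; SD, n = 4), a difference of 0.21 (SE 0.46, 95% interval -0.75 to 1.17). Its standard error was small beside the median of 1.78 over all tested genes.

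Plk5, a member of the polo-like kinase family that is made in brain, was read in 2 libraries of each group. It counted 0, 181, 40 and 0 reads in the Day 0 libraries and 0, 32, 72 and 0 in the Recurring ones. Both groups therefore had 2 libraries with reads and 2 at 0, and the difference was -0.44 (SE 2.23, 95% interval -5.14 to 4.25). The same on and off pattern over the 8 libraries was shared by 73 other genes of the table. Glis3, a zinc finger transcription factor, counted 10, 0, 3 and 4 reads in the Day 0 libraries and 90, 0, 0 and 0 in the Recurring ones. It passed the minimum of 10 normalized counts in 1 library and was not tested. The library with 90 reads of Glis3, Recurring replicate 1, also had the highest sum of astrocyte markers, 2032 RPM against 166 to 854 in the others, and the part of astrocyte RNA in this value was not tested.

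The 4 granule cell markers did not come and go together. Reads of Prox1 and Plk5 occurred in the same library in 3 of 8 cases, of Prox1 alone in 3, of Plk5 alone in 1 and of neither in 1. Prox1 and Glis3 shared 2 libraries, and no library had reads of all 4 genes. Day 0 libraries each had reads of 3 of the 4, and Recurring replicates 1 to 4 of 2, 3, 3 and 2.

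A wider list of 13 dentate granule cell markers gave the same kind of values. Of these, 12 were in the table and 10 were tested, with 7 higher and 3 lower in Recurring cells and a median difference of 0.22. No member of the list was called, and 0 had an unadjusted p under 0.05. The summed level was 466 ± 60.8 RPM (Day 0) against 528 ± 171 (Recurring; SD, n = 4), and Rfx3 alone supplied from 44.0% to 78.6% of these reads. The median difference was 1.38 without Recurring replicate 1 and -0.40 without Day 0 replicate 4. Lct, the lactase gene, had the smallest p of the genes outside the 9, with a difference of 3.39 (SE 2.38, limma adjusted p of 0.981). Dock10, a guanine nucleotide exchange factor with the highest mean level among them, differed by 1.48 (SE 1.25), with 1121, 603, 43 and 29 reads in Day 0 replicates 1 to 4 and 277 to 1078 in Recurring libraries.

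Hilar mossy cells, the other excitatory cells of the dentate gyrus, were represented by 3 of 6 listed genes in the table. Ociad2 had the smallest p and the highest mean of the list and was read in all 8 libraries, at 11.09 ± 0.65 (Day 0) against 9.87 ± 0.66 (Recurring; log2, SD, n = 4). The difference was -1.22 (SE 0.54, unadjusted p of 0.0383) and did not pass, with a limma adjusted p of 0.981. Of the 2 tested genes the other, Nmb, differed by 1.54 (SE 2.39). Scaled to total reads, summed levels of the list did not overlap, at 187 to 417 RPM in Day 0 and 67.3 to 155 in Recurring libraries. Divided by size factors they do overlap. Recurring replicate 2 had 1899 reads of the list at a size factor of 1.24, and Day 0 replicate 2 had 1891 at 1.25. The separation of the sums therefore depends on the scaling. Ociad2 supplied most of these reads, with 2454 of 2640 in Day 0 replicate 1 and 529 of 628 in Recurring replicate 4. Among single tested genes, by normalized counts, the groups did not overlap in 2.41%.

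The CA2 marker Pcp4 encodes a small calmodulin-binding peptide that is also made by granule cells and other neurons. It counted 102, 10, 0 and 0 reads in the Day 0 libraries and 0, 43, 34 and 57 in the Recurring ones. The highest library was thus in Day 0, while 3 Recurring libraries and 2 Day 0 libraries had any reads. The log2 level was 2.36 ± 3.0 (Day 0) against 4.06 ± 2.73 (Recurring; SD, n = 4), a difference of 1.70 (SE 2.12, 95% interval -2.76 to 6.17, limma adjusted p of 0.998). With any single library left out it lay between 0.92 and 3.06. The gene Igsf5, on the same strand, shares 243 of 1026 exon bases of Pcp4, so reads there could have been given to neither or to the wrong gene. Igsf5 itself is not among the genes of the deposited table.

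Of the CA2 markers in the table, 1 was read in all 8 libraries. Of 9 listed genes, 6 were in the table and 4 were tested, 3 higher and 1 lower, with a median difference of 0.44. It was -0.31 without Day 0 replicate 4, -0.02 without Recurring replicate 1, 1.40 without Day 0 replicate 1 and -0.50 with library weights. Rgs14, a regulator of G protein signalling that is a classical CA2 marker, was below the filter although it had 571 reads in Recurring replicate 2 and 369 in Day 0 replicate 2. Wipf3, an actin regulator and the most read gene of the list, differed by 0.11 (SE 0.35) and supplied from 72.5% to 99.9% of the list's reads. Pcp4 supplied at most 1.75%.

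The CA3 markers behaved in opposite ways, with Chgb in every library and Galnt3 in 5. Chgb encodes chromogranin B, a protein of dense-core vesicles that many neurons make. It counted 4084, 10995, 2151 and 16473 reads in the Day 0 libraries and 5807, 13707, 3955 and 4942 in the Recurring ones. Day 0 held both the highest and the lowest normalized count, 16511 and 2570, a 6.42-fold range that enclosed all Recurring libraries. The log2 level was 12.50 ± 1.28 (Day 0) against 12.39 ± 0.72 (Recurring; SD, n = 4), a difference of -0.11 (SE 0.52, 95% interval -1.20 to 0.99).

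Galnt3, an enzyme that starts mucin-type O-glycosylation, had the largest difference of the tested members. It counted 415, 0, 0 and 0 reads in the Day 0 libraries and 519, 469, 110 and 4 in the Recurring ones. It was therefore read in all 4 Recurring libraries and in 1 of Day 0, whose normalized count of 309 lay below 2 of the Recurring values (379 and 321) and above the other 2 (117 and 4.06). The log2 level was 2.07 ± 4.14 (Day 0) against 6.53 ± 2.89 (Recurring; SD, n = 4), a difference of 4.46 (SE 2.50, 95% interval -0.82 to 9.75). The unadjusted p was 0.0928 and the limma adjusted p 0.981, and 897 tested genes had a smaller p. Without Day 0 replicate 1 the difference was 6.53 (limma unadjusted p of 0.0142), without Recurring replicate 4 it was 5.86 (0.0452) and with voom 5.41 (0.0457), none of which passed the adjustment.

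Of the 10 listed CA3 markers 9 were in the table and 7 were tested, with 3 higher and 4 lower and a median difference of -0.11, which lay between -0.47 and 0.02 with a library left out. Chgb supplied from 35.9% to 76.7% of the list's reads. Dkk3, a secreted protein of the Dickkopf family and the gene with the highest mean outside the 9, differed by -0.36 (SE 0.43). Homer3, a scaffold of metabotropic glutamate receptors with the smallest p, differed by -2.86 (SE 2.44, limma adjusted p of 0.981).

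For subiculum and cortex, Lamp5 was read throughout and Fezf2 rarely. Lamp5, a lysosome-associated membrane protein of the brain that also marks neurogliaform interneurons, counted 758, 501, 79 and 802 reads in the Day 0 libraries and 261, 1031, 699 and 444 in the Recurring ones. Day 0 replicate 3 and Recurring replicate 1 were the lowest, and the groups overlapped. The log2 level was 8.50 ± 1.35 (Day 0) against 8.85 ± 1.07 (Recurring; SD, n = 4), a difference of 0.35 (SE 0.97, 95% interval -1.70 to 2.39), which was -0.30 without Day 0 replicate 3. The highest library was again Recurring replicate 2, the library with 5740 reads of Gad1. Normalized counts of Lamp5 were 832 there and 804 in Day 0 replicate 4, where Gad1 and Gad2 had 0 reads, Dlx1, another interneuron marker, had 370 and the interneuron sum was 38.2 RPM. The part of interneuron RNA in the Lamp5 values was not tested.

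Fezf2, a zinc finger factor that specifies deep-layer projection neurons, counted 0, 0, 0 and 396 reads in the Day 0 libraries and 0, 20, 116 and 0 in the Recurring ones. It was below the filter, since 3 libraries reached the minimum, and was not tested. Of 12 listed markers of subiculum and cortex, 7 were in the table and 3 were tested, all 3 with a higher Recurring mean and a median difference of 0.92. That median rests on single libraries: it was -0.30 without Day 0 replicate 3. Leaving out a Recurring library gave 2.25 (replicate 2), 0.14 (replicate 3) and 0.10 (replicate 4). Tle4, a corepressor of deep-layer neurons, differed by 0.92 (SE 2.41), and Slc17a6, the vesicular glutamate transporter of subcortical and some subicular cells, by 1.29 (SE 2.70). The summed level ranged from 9.67 to 142 RPM in Day 0 and from 81.4 to 1365 in Recurring cells. The value of 1365 came from Recurring replicate 2, and the next highest library had 237. In Recurring replicate 2, 93.5% of the list's reads were of Fn1, fibronectin, a protein also made by cells of vessels. The endothelial markers summed to 9.64 RPM there, against 0.339 to 49.7 in Day 0 and 0 to 59.3 over the Recurring libraries. The part of vessel RNA in the Fn1 reads was not tested.

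**Figure D3:**
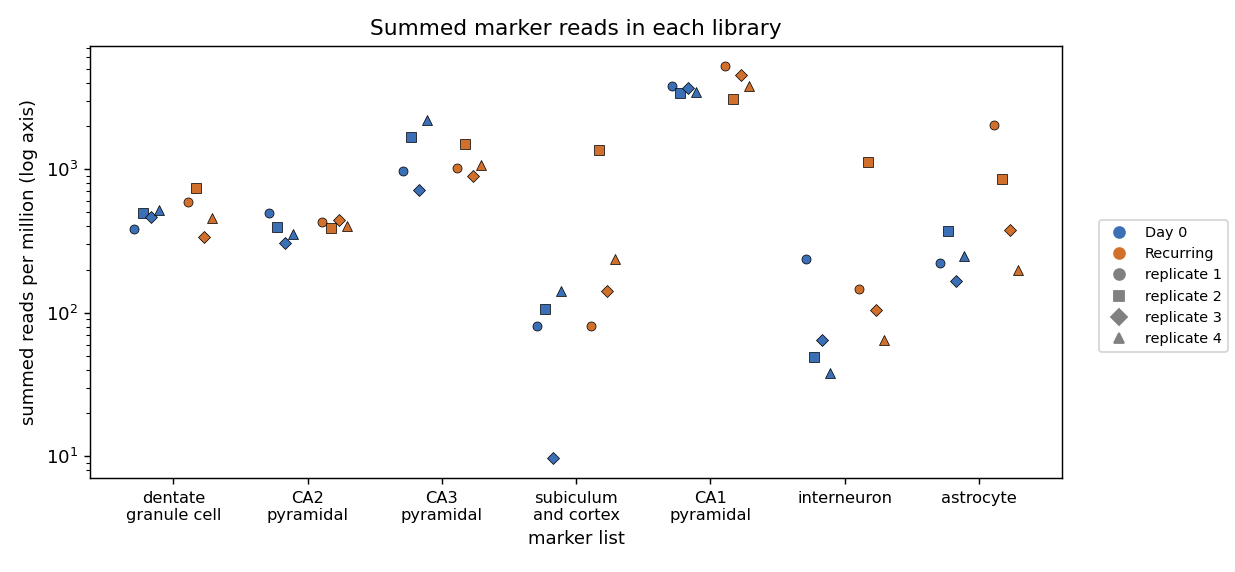
Summed RPM (reads-per-million scale), on a log axis, of the marker lists of 4 subfields, of CA1 and of 2 other cell types in each library, with Day 0 in blue, Recurring in orange and symbols for replicates. CA1 marker sums lie between 3064 and 5266 in every library. Sums of the CA3 list lie between 711 and 2200, and those of the granule cell list reach 734 at most. Interneuron markers stand at 1114 in Recurring replicate 2.

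CA1 markers were read at higher sums than those of the other fields, though sums of different genes depend on gene length and on the genes listed. The 11 CA1 markers summed to 3570 ± 201 RPM (Day 0) against 4166 ± 943 (Recurring; SD, n = 4). Of their reads, Zbtb20 alone had 29772 of 44768 in Day 0 replicate 1 and 10582 of 33453 in Day 0 replicate 4. Sums without Zbtb20 were not taken. The CA3 list summed to 711 to 2200 RPM in Day 0 and 889 to 1508 in Recurring libraries. The 9 subfield markers together had 583 to 2137 RPM in Day 0 and 744 to 1789 in Recurring libraries. Most of that was Chgb and Rfx3, and the other 7 markers came to 94.2 ± 54.9 (Day 0) against 113 ± 67.6 (Recurring; SD, n = 4). The lowest of these sums was 14.6, in Day 0 replicate 3, and the highest was 205, in Recurring replicate 2. Day 0 replicate 3 was the library of least depth (8374986 reads). Recurring replicate 3, at 8613854 reads, had a sum of 121, and the deepest library, Recurring replicate 1, had 58.4.

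None of the tested markers of other cells or of glutamatergic neurons passed the adjustment. Beside Prox1 and Lamp5, the 3 genes of interneurons from the caudal ganglionic eminence in the table summed to 0 to 98.3 RPM in Day 0 and 4.37 to 379 in Recurring libraries, the highest in Recurring replicate 3, where Prox1 had 7 reads. Of these genes 2 were tested, 1 higher and 1 lower (median difference 1.49). Astrocyte markers had 6 of 8 tested genes higher (median difference 1.97), 3 of them at an unadjusted limma p under 0.05, and microglia markers 3 of 4 (4.57), 2 of them at that level, beside 3.62% of all tested genes. Glutamatergic markers, which mark the labelled cell type, had lower Recurring means in 5 of 5 tested genes (median difference -0.33). Of these only Camk2a, a kinase of excitatory synapses, had an unadjusted limma p under 0.05 (-1.09, SE 0.42, unadjusted p of 0.0191, adjusted p of 0.981). The summed levels of the glutamatergic markers did not overlap, at 1837 to 2926 RPM in Day 0 and 1399 to 1697 in Recurring libraries. Camk2a had 12714 of the 34499 summed reads in Day 0 replicate 1 and 1231 of 15836 in Recurring replicate 4. Sums without Camk2a were not taken. Among single tested genes the groups did not overlap in 2.41%, and no such share was taken for summed lists. Oligodendrocyte markers were lower in 3 of 4 tested genes (-0.18), and the 1 tested endothelial gene differed by -0.54. No gene of oligodendrocyte precursors or of ependyma and choroid plexus passed the filter, so none was tested. Ependyma sums did not overlap, at 1.19 to 62.2 RPM in Day 0 and 0 to 0.116 in Recurring libraries. These sums rest on few reads or on single genes. The Day 0 replicate 3 sum was 10 reads of Dnah12, and Kl had 666 of the 733 reads in Day 0 replicate 1. Precursor sums were 0 to 1.48 RPM in Day 0 and 0 to 49.9 in Recurring libraries, with 1 Day 0 and 3 Recurring libraries above 0. The part of these cells in the values of the 9 markers was not tested.

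Genes with the most similar profile were taken for each member read in at least 4 libraries, by the root mean square difference of log2 levels scaled to unit SD over the 8 libraries. For Prox1 they were Ubash3b and Kbtbd7, at 0.25 and 0.27, where the median over 9608 genes was 1.27. Like Prox1, Ubash3b was highest in Recurring replicate 2, with 1654 reads, and at 0 in Recurring replicate 1. For Plk5 they were Bysl and Srd5a1, at 0.08 and 0.11, both at 0 in the same 4 libraries as Plk5. For Pcp4 they were Kctd12 and Pbx3 (0.18 and 0.19), for Galnt3 Plxdc2 and Zfp940 (0.21 each) and for Lamp5 Car2 and Pde9a (0.24 each). Rfx3 was most like Pgrmc2 (0.26), Chgb like Rdh11 and Bsg (0.26 and 0.29) and Glis3 like Vxn and Myo9b (0.37 and 0.43). None of these nearest genes belonged to the lists of subfield markers. These are the closest of many genes over 8 points, and no test was made.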

How the data were processed

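The authors deposited 1 linear signal value for each gene in each library. Per the submitters' processing notes, STAR, HTSeq and the GRCm39 build were used. Per the labels, SMART-Seq chemistry was used. How the authors scaled the values is not given in the sources used here. Within each gene the values were whole reads times a constant, which equalled a trimmed-mean-of-M-values factor computed across genes against Ptdss1. After division by it, 95910 of 95910 nonzero values lay within 0.1 of a whole read. The deposited values were therefore not corrected for depth, so size factors by the median of ratios (0.837 to 1.61) were applied. Reads are not unique molecules, so limits from counting cover counting error only.

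Recurring was compared with Day 0 by limma 3.58.1 (R 4.3.3), which was given a variance trend, on log2 of the normalized count plus 1, over 11078 genes with 10 or more in at least 4 libraries, and the Benjamini-Hochberg adjustment. The recovery and the fit were tested on simulated data. Gene identifiers and exon lengths came from GENCODE vM21 (all 9 members matched), which is on an earlier build; shared exon bases of overlapping genes were counted within it and no position from it is printed, and promoters from RefSeq, GRCm38.p6 (all 9 matched).

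Named genes were the 9 members, the gene with the smallest p and the one with the highest mean in each subfield list, the 2 nearest profiles of each member, and Slc17a7, Gad1 and Gad2. Nearest profiles left out predicted genes, clones and pseudogenes by symbol, and 1 of them is not reported here. Fn1, Rgs14, Nmb, Camk2a, Erbb4, Vip, Nr2f2, Dlx1, Zbtb20, Kl and Dnah12 were named after their values were seen. The members and lists were chosen with earlier results of these data known. Lists also covered mossy cells, glutamatergic neurons, interneurons of the caudal ganglionic eminence, oligodendrocytes and their precursors, microglia, endothelium, and ependyma. Alternatives were other pseudocounts, filters, scalings and weights, voom, and each library left out.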

Additional observations from a re-analysis of the deposited data

Results flagged for a closer look

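In 4 of the 18 groups of 4 libraries, the highest or lowest level of a member stood far from the other 3, by a criterion that chance meets in about 1 in 20 groups. Where the other libraries are at 0 reads, any reads at all meet it.

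Glis3 stood at a log2 level of 5.83 in Recurring replicate 1 and at 0 in the other Recurring libraries. Pcp4 had a level of 0.00 in Recurring replicate 1, while its 3 companions lay from 5.16 to 5.88. Galnt3 stood at 8.27 in Day 0 replicate 1 and Fezf2 at 8.64 in Day 0 replicate 4, each with the other Day 0 libraries at 0.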

How the results depend on the processing

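Zeros and the spread between libraries limit these comparisons. At least 2 libraries were at 0 reads for 6 of the 9 members, and standard errors of tested members reached 2.67 log2 units. Recurring replicate 1 (14887866 reads) and Day 0 replicate 3 (8374986), the deepest and shallowest libraries, each had reads of 5 members. Recurring replicate 3 (8613854) had reads of 8. The part of depth in the zeros was not tested. Under all 17 alternatives 0 members were called. Genes called over the whole table were 0, except 2 without a variance trend. At an unadjusted limma p under 0.05 they numbered 401 of 11078. They were 518 with voom, 330 with a minimum of 50, where fewer genes were tested, and 650 with no filter, where all 15519 genes were tested. The Prox1 difference of 0.06 was -0.02 with scaling to total reads, -0.07 on the deposited values as they stand, -0.29 with voom and -1.38 with library weights. With library weights the Rfx3 difference of 0.21 was -0.04. Leaving out each library in turn gave -1.54 to 1.68 for Prox1, -0.05 to 0.53 for Rfx3, -1.62 to 0.88 for Plk5, -0.50 to 0.39 for Chgb and -0.30 to 0.85 for Lamp5, so their signs turned. Pcp4 (0.92 to 3.06) and Galnt3 (3.77 to 6.53) kept theirs there and under the other alternatives that gave them a value. With a library left out, list medians lay between -0.40 and 1.38 (granule cell), -0.39 and 0.81 (mossy cell), -0.31 and 1.40 (CA2), -0.47 and 0.02 (CA3) and -0.30 and 2.25 (subiculum and cortex), so all 5 turned sign. The CA3 median was 0.37 with no filter and 0.22 on the deposited values, and library weights gave -0.50 for CA2 and -0.41 for mossy cells. That of the mossy cell list, 0.16 over 2 genes, was -1.22 with no filter, where it has 3 genes, and -1.22 with a minimum of 50, where it has 1. At 10 or more reads, 5.25 members were detected per Day 0 library and 6.25 per Recurring library. No paired analysis was made, because no mouse number in the titles occurs in both groups. The replicate numbers follow the order of deposit only.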
